A study of Salvia miltiorrhiza with 5 samples.

Results

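The later jasmonate response of *Salvia miltiorrhiza* hairy roots was described by comparing the library of roots treated with methyl jasmonate for 6 h (MeJA-6h) with that of untreated roots taken at 0 h (control). These are 2 of the 5 libraries of the series. The comparison covered the 42602 of 55588 unigenes that had at least 30 counted reads in either library. Of the 55588, 565 carry a gene or family name in those tables of the study that were used here. Both groups were 40-day-old shake-flask cultures of roots induced with an *Agrobacterium tumefaciens* strain that carries a root-inducing plasmid, so both carry that plasmid's transferred genes. The treated roots received MeJA at 0.1 mM, dissolved in ethanol. The MeJA-1h library, treated for 1 h at the same dose, was used only to place the values in time. Each library was made from the mixed RNA of 3 cultures, which leaves 1 library per condition and no replicate check within the RNA-seq data. No library of roots given ethanol alone or kept for 6 h without MeJA was analysed here, so time, handling, solvent and a batch of any kind cannot be told apart from MeJA. No list of root cell type markers comes with the unigene names, and the labelled tissue was therefore not checked against markers.

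Jasmonates are lipid-derived hormones that plants make after wounding and attack. In the resting state, Tify (JAZ) proteins hold back bHLH transcription factors of the MYC type. The active hormone leads to the breakdown of these repressors, and the repressor genes are themselves among the genes that are then transcribed. In *S. miltiorrhiza*, jasmonate is known to raise both families of medicinal compounds that this species stores in its roots. Tanshinones are diterpenes. Their precursors come from the mevalonate pathway of the cytosol and the methylerythritol phosphate (MEP) pathway of plastids. Prenyltransferases join these precursors, the cyclases CPS and KSL fold the chain, and cytochrome P450s of the CYP76AH group oxidise it. Phenolic acids such as rosmarinic acid are esters, with one part from phenylalanine through PAL, C4H and 4CL and the other from tyrosine through TAT and HPPR. RAS joins both parts, and the P450 CYP98A14 adds hydroxyl groups.

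Library totals were 13395770 counted reads (control), 16070622 (MeJA-1h) and 15789097 (MeJA-6h). Levels are given as deposited RPKM values, which scale reads to unigene length and to the library total. A unigene was called up or down where the reads of both libraries differed at a false discovery rate (FDR) under 0.01, by edgeR's binomial test adjusted over all 42602 unigenes, and the RPKM values differed by more than 2 folds. This test compares 2 libraries, not 2 conditions. Intervals are 95% exact (Clopper-Pearson) intervals and cover counting error only. For medians and ranks, a library with 3 reads or fewer was entered at 3 reads. A fold against a library with 0 reads is printed as the bound this gives, and one against 1 to 3 reads as the ratio of reads per library total with its counting interval. The counts look like estimates with their decimals dropped, so such ratios are uncertain beyond that interval. Of the unigenes tested, 2592 (6.08%) were called up in MeJA-6h and 4303 (10.1%) were called down. Scaling by TMM, a method that assumes that most transcripts do not change, moved all log2 values up by 0.24. With it 3506 unigenes (8.23%) were called up and 2631 (6.18%) down, and the share of calls that were upward went from 37.6% to 57.1%. The median log2 fold change of all tested unigenes was -0.22 by library totals and 0.02 by TMM. The sign of a small change in a single unigene can therefore differ between scalings, as it did in several unigenes named below.

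The study's lists hold 66 unigenes of the tanshinone pathway, 37 of the phenolic acid pathway, 45 and 26 P450s co-expressed with these pathways, 20 candidate downstream enzymes and 375 transcription factors. The lists overlap in 4 unigenes: *CYP76AH1* and *CYP76AH3* unigenes also appear as *CYP76C2* in a P450 list, or as MYB-related transcription factors. Of the 565 unigenes, 486 had enough reads, 237 were called up and 8 were called down. The study chose most of them as up-regulated in these same libraries, so the excess over the 6.08% called up among all unigenes is not independent evidence of a direction. The lists differed in how many of their members were called up at 6 h. That number was 31 of 37 for the phenolic acid pathway, 17 of 66 for the tanshinone pathway, 26 of 26 for the P450s of the phenolic acid list and 4 of 45 for those of the tanshinone list. The median log2 fold changes in the same order were 1.42, 0.55, 2.22 and 0.08. The study chose its P450 lists by co-expression over these same libraries, with *TAT1*, *HPPR1* or *RAS1* and with *KSL1*, *CPS1* or *CYP76AH1*. Both were drawn from P450s that it counted as up-regulated. The difference between the P450 lists is therefore a description and not independent evidence.

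**Figure D1:**
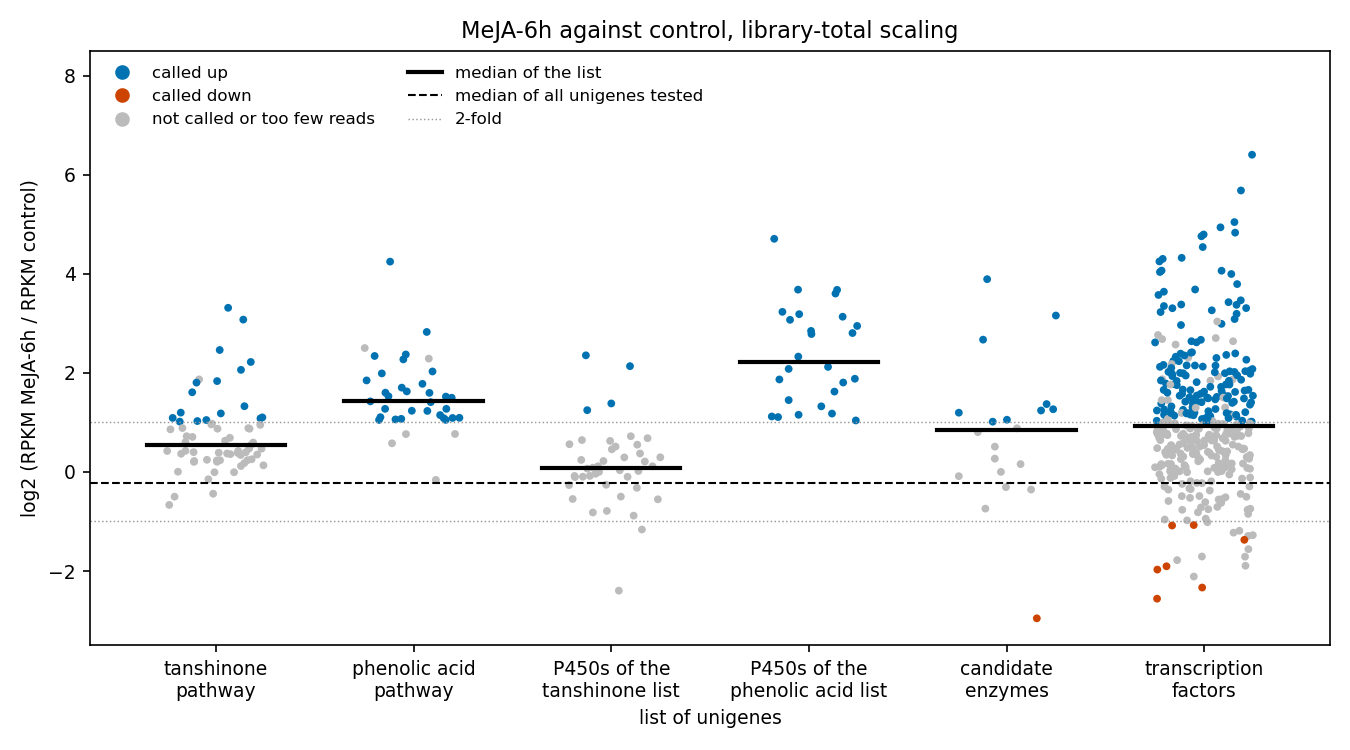
Each point is 1 unigene of a list with its log2 ratio of RPKM values in MeJA-6h and control. Colours mark the calls, thick bars the medians of the lists (1.42 for the phenolic acid pathway and 0.55 for the tanshinone pathway) and the dashed line the median of all tested unigenes, -0.22.

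Together, the phenolic acid pathway unigenes took 0.419% of the counted reads in the control, 1.17% in MeJA-1h and 1.18% in MeJA-6h. For the tanshinone pathway unigenes these shares were 0.690%, 1.64% and 1.37%. The shares of the first list were thus nearly level between the treated libraries, and those of the second were lower at 6 h than at 1 h. The second list was not uniform: its *GPPS2* unigenes went from 38504 to 13046 reads and its *HMGR2* unigenes from 41197 to 26813, whereas the share of its MEP pathway unigenes went from 0.154% to 0.186% and that of its *CYP76AH* oxidases from 0.140% to 0.181%. The median log2 difference of the list between 6 h and 1 h was -0.05. A share in bulk RNA does not separate fewer cells of a type from less RNA per cell. When MeJA-6h was compared with MeJA-1h directly, over 42193 unigenes with enough reads, 1694 (4.01%) were called higher at 6 h and 2273 (5.39%) lower. This comparison shares the MeJA-6h library with the main one. Among the 237 listed unigenes called up at 6 h, 42 were also higher than at 1 h and 43 were lower.

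In the mevalonate pathway, *AACT1*, *HMGS* and 2 of 3 *HMGR2* unigenes rose. The study measured pathway genes by qRT-PCR with independent biological replicates and reported that the values followed its RNA-seq values. Those measurements were not re-analysed here. The study designed qRT-PCR primers for several pathway transcripts. The pairs for *AACT1*, *TAT*, *HPPR* and *RAS* are shown because these 4 genes start the mevalonate pathway or form the tyrosine branch and the ester of the phenolic acids, and all are given 5′ to 3′, forward and then reverse.
SmAACT1-285F: agtctgtgcctctggaatgaaagc
SmAACT1-479R: acatcccagagtccgtccttcag
SmTAT-227F: caactgctggtcttccacaaac
SmTAT-369R: gcgagccaaaacggaca
SmHPPR-614F: tgactccagaaacaacccacatt
SmHPPR-752R: cccagacgaccctccacaag
SmRAS-648F: cgagatcgcctactccaagttcaag
SmRAS-889R: agatggcgttaccgaagtatccctg

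*AACT1* (SmiContig13417), which joins acetyl units in the first step of the pathway, had RPKM values of 360 in the control, 804 in MeJA-1h and 1284 in MeJA-6h. It rose 3.56-fold at 6 h, a log2 fold change of 1.83 with an interval from 1.80 to 1.87, on 7700 and 32331 reads. Its level was highest in the later library. *HMGS*, which makes HMG-CoA, had RPKM values of 146, 705 and 444 in the control, MeJA-1h and MeJA-6h, and its log2 fold change at 6 h was 1.61 (1.56 to 1.66). *HMGR2* (SmiContig32425) encodes the reductase that commits carbon to mevalonate. Its RPKM values were 73.6, 543 and 343, with a log2 fold change of 2.22 (2.16 to 2.28). Both enzymes of HMG-CoA stood lower at 6 h than at 1 h, by less than the 2 folds needed for a call. The other *HMGR2* unigenes had log2 fold changes of 0.69 and 1.09, and only the latter was called.

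The remaining mevalonate genes were not called. *HMGR3*, which codes for a further HMG-CoA reductase, had RPKM values of 116, 241 and 179 in the same order of libraries, a log2 fold change of 0.63. The kinases *MK* and *PMK* and the decarboxylase *MDC* turn mevalonate into isopentenyl diphosphate. Their most abundant unigenes had log2 fold changes of 0.60, 0.55 and 0.43, which stayed under 2 folds with TMM as well. In MeJA-1h the RPKM value of *MDC* was 301, against 134 in the control and 180 in MeJA-6h. Over all 21 mevalonate unigenes, 15 had enough reads, 4 were called up and none was called down, beside 6.08% and 10.1% of all unigenes tested. Their median log2 fold change was 0.45 at 6 h and 1.06 at 1 h.

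At 6 h, 3 of 18 MEP pathway unigenes (16.7%) were called up, or 7 with TMM. Among all unigenes tested, 6.08% were called up by library totals and 8.23% with TMM. The median log2 fold change of the 18 was 0.41 at 6 h and -0.04 at 1 h. *DXS3*, which codes for a first-step synthase, had RPKM values of 25.1, 25.9 and 53.8 in the control, MeJA-1h and MeJA-6h. It rose 2.14-fold against the control (log2 1.10, 0.98 to 1.22) and was the only tanshinone pathway unigene called higher at 6 h than at 1 h. *DXS2*, a further first-step synthase, was more abundant. Its RPKM values were 112, 173 and 206, a log2 fold change of 0.89 that was called only with TMM. *CMK*, a kinase in the middle of the pathway, had 3 unigenes with log2 fold changes from 0.95 to 1.20, and 2 of them were called. The most abundant, SmiContig31978, went from 6.61 to 15.2 RPKM. The reductoisomerase *DXR*, the synthase *MCS* and the last reductase *IDS* had values of 0.24, 0.37 and 0.37 in their most abundant unigenes. *HDS1*, which precedes the last step, had RPKM values of 49.3, 101 and 96.7, a log2 fold change of 0.97 that was called with TMM only.

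At the prenyl diphosphates, *GPPS2* rose most. This gene codes for a subunit of the synthase of geranyl diphosphate, and its more abundant unigene, SmiContig11755, had RPKM values of 24.8, 614 and 209. Its log2 fold change at 6 h was 3.07 (2.96 to 3.19), while the other unigene had 3.31. Both were called lower at 6 h than at 1 h. By contrast, *GGPPS1*, which makes the chain that enters diterpenes, had RPKM values of 56.6, 58.8 and 56.8. Its log2 fold change was 0.00 with an interval from -0.11 to 0.11 by library totals, and 0.24 by TMM. The isomerase *IPPI* and the farnesyl diphosphate synthase *FPPS* had log2 fold changes of 0.87 each, called with TMM only. Their RPKM values at 6 h were 590 and 324.

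Among the cyclases, copies of *CPS* differed from one another. CPS enzymes perform the first cyclisation of the diterpene chain. SmiContig26967, the most abundant unigene named *CPS1*, had RPKM values of 190, 461 and 387 and a log2 fold change of 1.03 (0.99 to 1.07), which is just past the threshold. The other *CPS1* unigene, SmiContig19468, had RPKM values of 121, 154 and 109, a log2 fold change of -0.15 that turned to 0.09 with TMM. How reads that match several such copies were counted is not given in the sources used here, so values of close copies are uncertain. *CPS3* was low in all libraries: 4 of its 5 unigenes were called up, with log2 fold changes of all 5 between 1.33 and 2.46, and SmiContig11803 had 13 and 55 reads in the control and MeJA-6h. *CPS5* had both of its unigenes called, at 1.01 and 1.05. *CPS4* stood at 4.20, 22.2 and 8.17 RPKM. It was lower at 6 h than at 1 h and was called against the control with TMM only. The *CPS2* unigene c21908_Smj-1h_g1_i1 had RPKM values of 5.24, 12.5 and 6.21 and was also lower at 6 h than at 1 h. Of the 4 *CPS2* unigenes, SmiContig13549 was called up, at a log2 fold change of 1.18 (0.65 to 1.73) on 42 and 112 reads, and a second was called with TMM.

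Neither *KSL1* nor any *CYP76AH* unigene was called at 6 h. *KSL1*, the second cyclase, had RPKM values of 40.4, 51.8 and 46.6, a log2 fold change of 0.20 (0.09 to 0.32). *CYP76AH1* makes ferruginol from the cyclised diterpene. Its unigene c21531_Smj-6h_g1_i1 had RPKM values of 115, 141 and 189, a log2 fold change of 0.72 (0.66 to 0.78). *CYP76AH3*, which oxidises ferruginol further, had 131, 117 and 144 RPKM and a log2 fold change of 0.13. None of the 6 *CYP76AH* unigenes reached 2 folds under either scaling, and their median was 0.28, or 0.52 with TMM. Of the tanshinone pathway unigenes, 5 passed upward in edgeR's exact test when a coefficient of variation of 0.2 between pooled libraries was assumed. With 0.4, 0 passed. Among all unigenes, 2.94% passed upward and 2.49% downward at 0.2, and 0.331% and 0.0399% at 0.4.

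**Figure D2:**
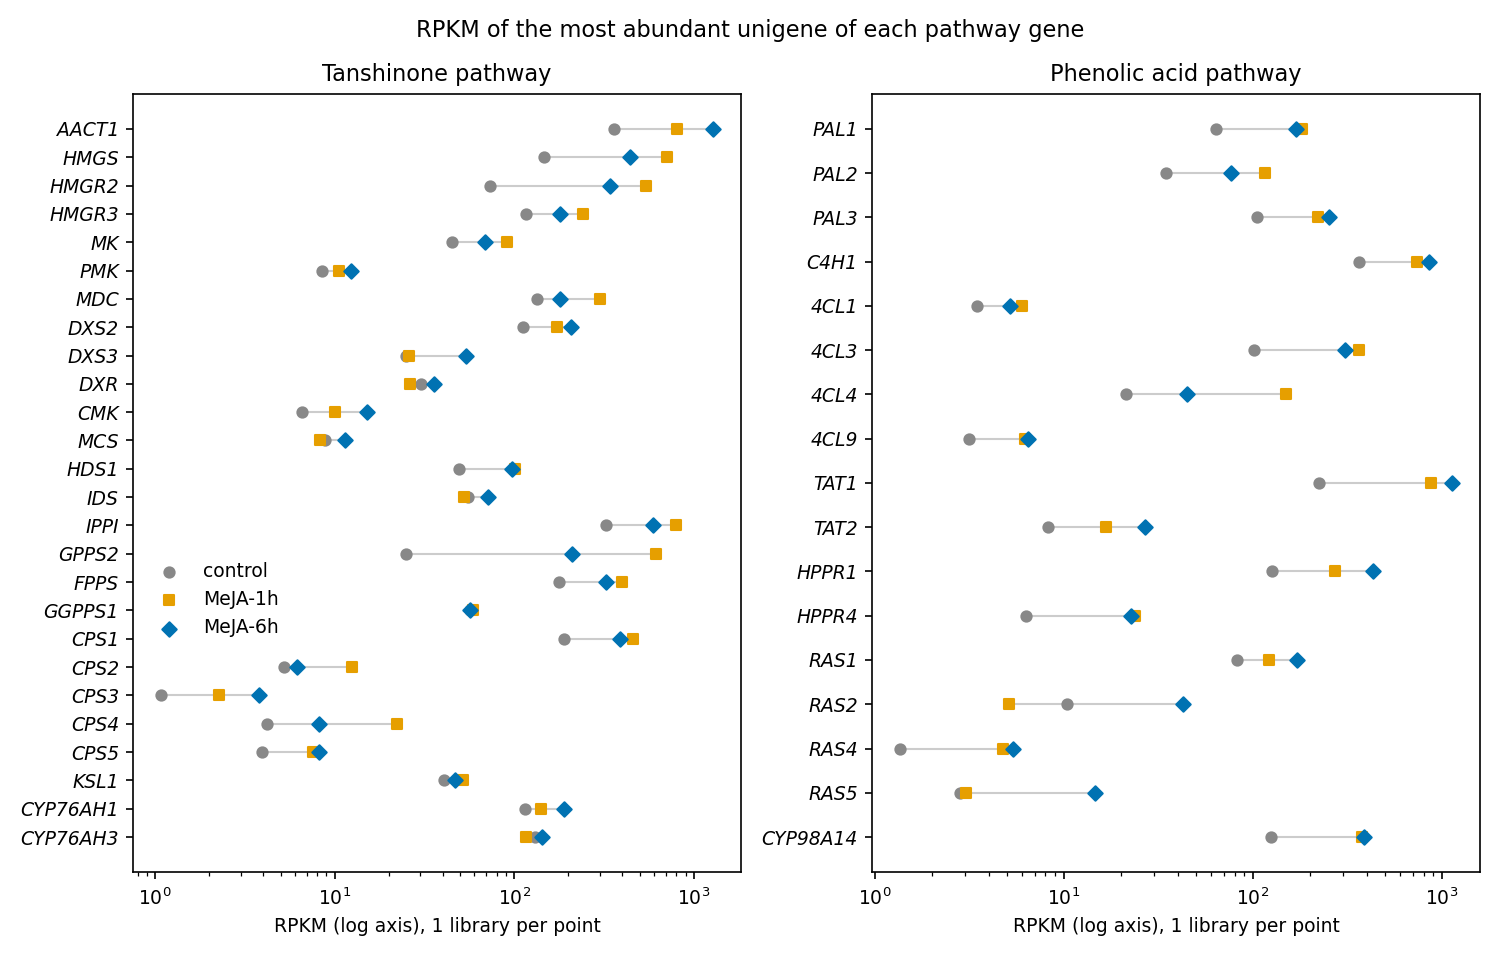
RPKM values on a log axis for the most abundant unigene of each pathway gene, in control (circles), MeJA-1h (squares) and MeJA-6h (diamonds), 1 library each. *AACT1*, *TAT1* and *HPPR1* are highest in MeJA-6h, *GPPS2* is highest in MeJA-1h, and the 3 values of *GGPPS1* lie between 56.6 and 58.8.

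Most phenylpropanoid entry unigenes rose. Of 19 unigenes 16 were called up, beside 6.08% of all unigenes tested, and all 19 log2 fold changes lay between 0.58 and 1.60. PAL removes ammonia from phenylalanine and opens the pathway. The most abundant *PAL1* unigene, c17597_Sye-12h_g1_i1, had RPKM values of 63.7, 181 and 169 in the control, MeJA-1h and MeJA-6h. It rose 2.65-fold at 6 h, a log2 fold change of 1.41 (1.33 to 1.48). *PAL2* had 34.7, 116 and 76.7 RPKM and a log2 fold change of 1.15, and *PAL3* had 104, 221 and 253 RPKM and 1.27. C4H hydroxylates cinnamic acid. With 362, 738 and 853 RPKM, *C4H1* (SmiContig7266) was the most abundant entry gene, and its log2 fold change was 1.23 (1.20 to 1.26).

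The 4CL enzymes, which attach coenzyme A to the hydroxylated acid, differed by copy. *4CL3* went from 102 RPKM in the control to 364 in MeJA-1h and 308 in MeJA-6h, a log2 fold change of 1.60 (1.55 to 1.65). *4CL4* had 21.2, 149 and 45.0 RPKM, so its level at 6 h was above the control (log2 1.08, 0.94 to 1.23) and called lower than at 1 h. *4CL9* was low, at 3.14, 6.26 and 6.49 RPKM, with a log2 fold change of 1.05. *4CL1* was low as well and was not called. Its log2 fold change was 0.58 (0.17 to 1.00) on 79 and 139 reads. The median of the entry unigenes was 1.23 at 6 h and 1.74 at 1 h.

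The tyrosine branch showed higher values. TAT transfers the amino group from tyrosine, and *TAT1* (SmiContig5984) had RPKM values of 223, 877 and 1130. It rose 5.06-fold at 6 h, with a log2 fold change of 2.34 (2.297 to 2.383), and was the most abundant phenolic acid pathway unigene of the MeJA-6h library among those named. *HPPR1*, which reduces the product of TAT, had 126, 271 and 432 RPKM, a log2 fold change of 1.78 (1.71 to 1.84). The highest level of both genes was in MeJA-6h, though neither was called higher than at 1 h. *HPPR4*, a copy with fewer reads, had 6.28, 23.8 and 22.6 RPKM and a log2 fold change of 1.85. The *TAT2* unigenes diverged, with log2 fold changes from -0.16 in SmiContig32539, which turned to 0.08 with TMM, to 2.82. For SmiContig32539 and *4CL1* the RPKM values in the study's own pathway table differ from the deposited ones, which are used here. SmiContig12929, the most abundant of them, rose from 8.23 to 26.7 RPKM (log2 1.70, 1.45 to 1.96).

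All 10 unigenes with enough reads in the last steps of the phenolic acid pathway were called up at 6 h. Among all unigenes tested, 6.08% were. The median log2 fold change of the 11 in this group was 1.99 at 6 h and 0.63 at 1 h. However, the median of their log2 differences between 6 h and 1 h was 0.46. Together the 11 took 0.079% of the counted reads in the control, 0.157% in MeJA-1h and 0.196% in MeJA-6h. *RAS1*, the acyltransferase that forms the rosmarinic acid skeleton, had 4 unigenes with log2 fold changes between 1.05 and 1.11, just past the threshold. None of these 4 passed with an assumed coefficient of variation of 0.2, while 6 unigenes of the whole group did. The most abundant *RAS1* unigene, c17386_Smj-1h_g1_i1, had 81.8, 122 and 172 RPKM. *RAS2* had RPKM values of 10.4, 5.15 and 42.5, on 211, 125 and 1016 reads. Thus it was lower in MeJA-1h than in the control and rose 4.08-fold at 6 h, a log2 fold change of 2.03 (1.82 to 2.25). It was 8.24-fold higher at 6 h than at 1 h.

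The *RAS5* unigene c23133_Smj-1h_g1_i3 was also highest in MeJA-6h, with 2.82, 3.04 and 14.6 RPKM and a log2 fold change of 2.37 (1.82 to 3.03). A shorter *RAS5* unigene, c2000_Smj-6h_g1_i1, had 1, 1 and 67 reads, a 56.8-fold ratio of MeJA-6h to control with an interval from 9.86 to 2278. The *RAS4* unigene c23133_Smj-1h_g1_i1 had 1.36, 4.78 and 5.39 RPKM and shares its assembled locus name with that *RAS5* unigene, so their separate values are uncertain. *RAS2* and these 2 *RAS5* unigenes were the only phenolic acid pathway members called higher at 6 h than at 1 h. They were 3 of 37, and 4 others were called lower, beside 4.01% and 5.39% of all unigenes tested. *CYP98A14*, the P450 that completes rosmarinic acid, had 125, 375 and 385 RPKM. It rose 3.08-fold at 6 h (log2 1.63, 1.57 to 1.68) and was level between the treated libraries. Across the pathway, 16 of the unigenes called up passed with an assumed coefficient of variation of 0.2 and 1, the short *RAS5* unigene, with 0.4.

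The study also listed P450s whose levels followed *TAT1*, *HPPR1* or *RAS1* over its 5 libraries, which include the 2 compared here. Membership thus rests on these levels, and the count of 26 called up of 26 is a description. P450s are oxygenases that modify many plant metabolites. The 15 unigenes that followed *TAT1* had a median log2 fold change of 2.95 at 6 h and 2.75 at 1 h, and none was called higher or lower at 6 h than at 1 h. The 9 that followed *HPPR1* had medians of 2.12 and 0.99, and 6 of them were called higher at 6 h than at 1 h. Among all unigenes tested against MeJA-1h, 4.01% were called higher.

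*CYP79B3* (c21609_Smj-1h_g1_i1) had the largest change of the list, with 1.11, 7.97 and 29.0 RPKM on 9, 77 and 276 reads. Its log2 fold change was 4.70 (3.76 to 5.85), a 26.1-fold rise, and it was 3.63-fold higher at 6 h than at 1 h. In *Arabidopsis*, CYP79B3 converts tryptophan to its oxime. The list holds 4 unigenes named *CYP72A10*. Among them, SmiContig11632 had 10.5, 147 and 135 RPKM and a log2 fold change of 3.68 (3.49 to 3.87), and c17493_Smj-0h_g1_i1 had 3.60. SmiContig31869 had the lowest value of the 4, 3.07, and c16024_Smj-1h_g1_i1 had 3.67. As close copies, their separate values are uncertain.

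*CYP714A2*, named after an *Arabidopsis* enzyme of gibberellin metabolism, had 7.68, 77.6 and 69.8 RPKM and a log2 fold change of 3.18 (2.96 to 3.42). The *CYP716A2* unigene c32889_Smj-1h_g1_i1 had 0, 36 and 33 reads and was at least 9.39-fold higher at 6 h. With *CYP79B3*, 4 members named *CYP81* were among the 6 called higher at 6 h than at 1 h, beside 4.01% of all unigenes tested. *CYP81D1* (c18925_Smj-6h_g1_i2) had 20.7, 54.3 and 143 RPKM, and *CYP81F3* had 5.19, 16.2 and 37.3 RPKM. Their log2 fold changes against the control were 2.78 (2.65 to 2.92) and 2.85 (2.54 to 3.19), and they were 2.62-fold and 2.31-fold higher at 6 h than at 1 h. In *Arabidopsis*, CYP81F enzymes modify indole glucosinolates, which are compounds of another plant family. *CYP98A3* (c20834_Smj-6h_g2_i1) had 128, 384 and 395 RPKM, close to *CYP98A14* in each library, and it was not resolved whether both names describe 1 transcript. At a coefficient of variation of 0.4 only *CYP79B3* passed, and at 0.2 18 of the 26 did.

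Of the P450s listed for tanshinones, 8.89% were called up at 6 h. They were chosen by the study as co-expressed with *KSL1*, *CPS1* or *CYP76AH1* over these same libraries, so this share is a description. Of 45 unigenes 41 had enough reads, 4 were called up and none was called down, beside the 6.08% and 10.1% of all unigenes tested. The median log2 fold change was 0.08, and 0.32 with TMM. *CYP716A1* (c20619_Smj-6h_g1_i1) had 6.45, 45.3 and 32.9 RPKM and a log2 fold change of 2.35 (2.10 to 2.62). A further *CYP716A1* unigene, SmiContig30710, had 19.0, 64.2 and 49.5 RPKM and 1.38. In other plants, CYP716A enzymes oxidise triterpenes. *CYP72A10* (SmiContig30503) was called up at 2.13 (1.65 to 2.68), on 39 and 204 reads. The *CYP76C2* unigene c20662_Sye-1h_g1_i2, a short one, had 8.08, 8.77 and 19.2 RPKM and 1.25, and was called higher at 6 h than at 1 h.

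At the other end of this list stood 3 abundant unigenes named *CYP71B23*. SmiContig14298 had RPKM values of 160, 162 and 86.6, a log2 fold change of -0.88 (-0.96 to -0.81). SmiContig22875 had 141, 127 and 80.0 RPKM and a log2 fold change of -0.82, and c25054_Sye-1h_g1_i2 had -0.79. All 3 had their lowest level at 6 h, but the difference did not reach 2 folds and was not called. With TMM they were nearer 0. *CYP707A4*, which in *Arabidopsis* breaks down abscisic acid, went from 13 to 3 reads, too few for the test.

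**Figure D3:**
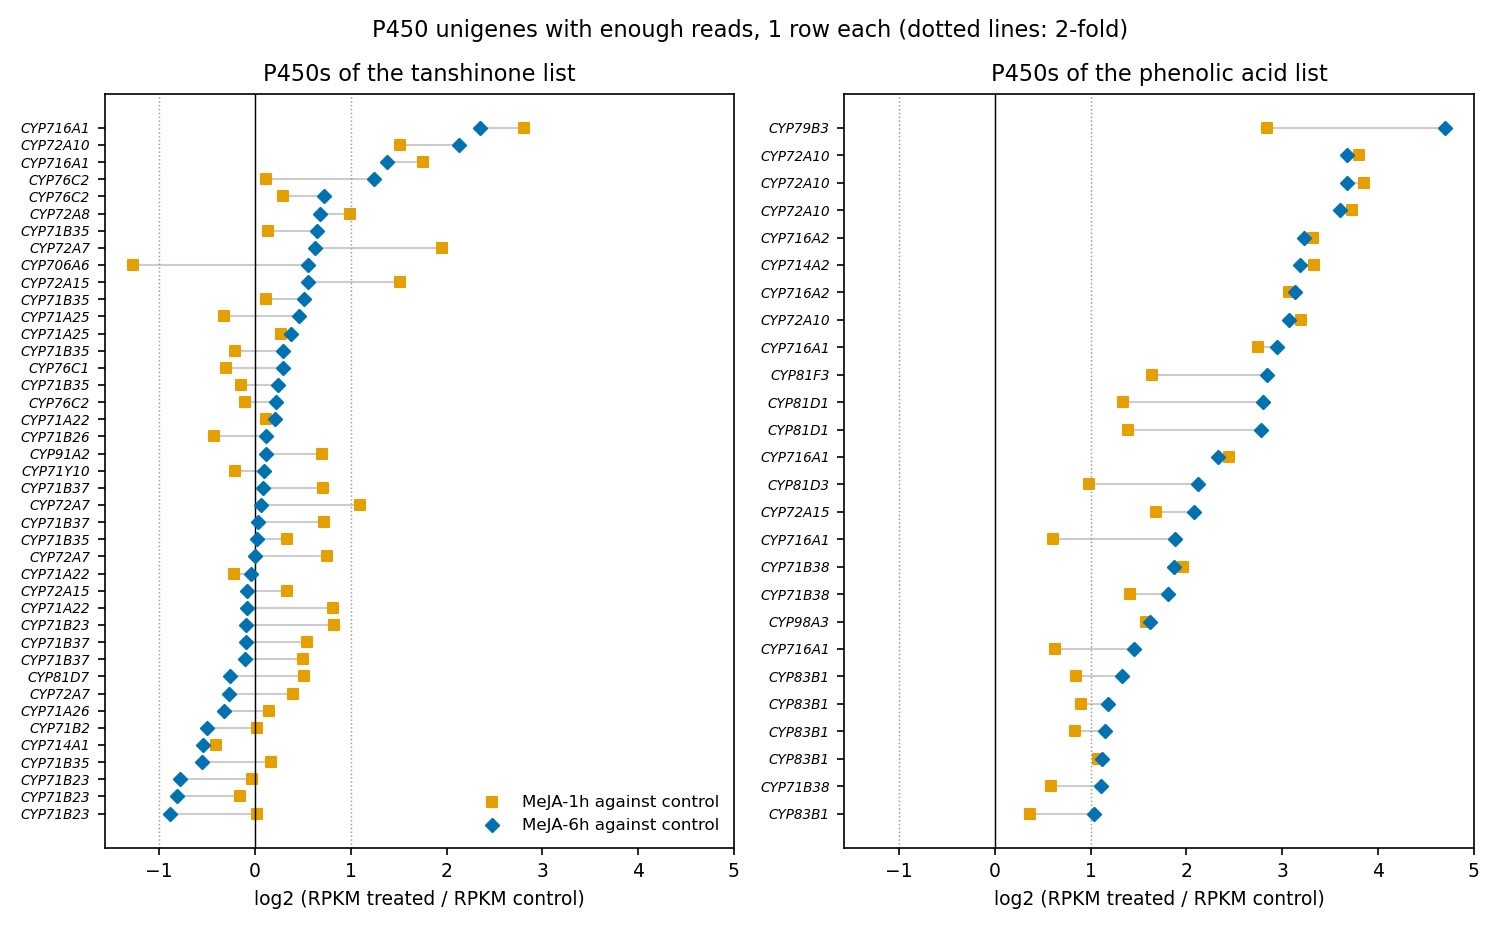
Log2 ratios of RPKM values to the control at 1 h (squares) and 6 h (diamonds) for the 41 P450 unigenes of the tanshinone list (left) and the 26 of the phenolic acid list (right) that had enough reads, sorted by the value at 6 h. On the right all diamonds lie past 2 folds, from 1.04 to 4.70, while on the left 4 do. Both lists were chosen by the study from these same libraries.

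Candidates for the steps after rosmarinic acid and tanshinone precursors were named by class. Laccases are copper enzymes that couple phenolic compounds by oxidation. All 4 unigenes named laccase 1 A were called up. The first, c22112_Smj-6h_g1_i1, had RPKM values of 55.0, 333 and 816 in the control, MeJA-1h and MeJA-6h, on 1479 and 25844 reads in the control and MeJA-6h. Its log2 fold change was 3.89 (3.81 to 3.97), and it was the only laccase called higher at 6 h than at 1 h. The other 3 had log2 fold changes of 1.20, 2.67 and 3.16. Together the laccase 1 A unigenes took 0.049% of the counted reads in the control and 0.384% in MeJA-6h.

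Unigenes named laccase 2 went in different directions. SmiContig18382 had 113, 207 and 266 RPKM and was called up at 1.24 (1.18 to 1.30). SmiContig8962 had 9.25, 19.5 and 1.19 RPKM and fell by 2.95 on the log2 scale, on 253 and 38 reads, so that it was above the control at 1 h and below it at 6 h. It was the only enzyme unigene of any list called down. Reductases and dehydrogenases oxidise or reduce carbon skeletons. Of the classes, 2 of 6 reductases and 2 of 7 dehydrogenases were called up, beside 6.08% of all unigenes tested. The highest of each class were reductase SmiContig6622, with 59.1, 411 and 123 RPKM (log2 1.05), and dehydrogenase SmiContig32840, with 33.4, 106 and 86.3 RPKM (log2 1.37). Of the 20 candidates, 8 were called lower at 6 h than at 1 h, and reductases made up 3 of these and dehydrogenases 4. Among all unigenes tested, 5.39% were called lower. Of the 9 called up, 3 passed with a coefficient of variation of 0.2 and 1, the first laccase, with 0.4.

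Transcription factors were listed by family. Of 375 unigenes in 38 families, 311 had enough reads. Of the 375, 150 (40%) were called up and 7 (1.87%) down, beside 6.08% and 10.1% of all unigenes tested. The shares of all unigenes also stand beside the family counts below. The study listed all 375 because they rose more than 2 folds with MeJA or yeast extract in these libraries. The counts are thus a description. The median log2 fold change was 0.93, or 1.17 with TMM. Compared with the 1 h library, 34 were called higher and 79 lower, beside 4.01% and 5.39% of all unigenes tested. All 4 Tify unigenes were among the largest rises. SmiContig7563 had 1.02, 143 and 52.3 RPKM in the control, MeJA-1h and MeJA-6h and a log2 fold change at 6 h of 5.68 (5.06 to 6.49). SmiContig11926 had 2.23, 264 and 60.3 RPKM, a log2 fold change of 4.76, and SmiContig12974 had 2.22, 151 and 51.6 RPKM and 4.54. The fourth, c14867_Smj-0h_g1_i1, was the most abundant with 39.3, 1475 and 504 RPKM and rose 12.8-fold (log2 3.68, 3.54 to 3.83). All 4 were called lower at 6 h than at 1 h while still far above the control. Their median was 4.65 at 6 h and 6.48 at 1 h.

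The bHLH family, to which the MYC factors belong, had 26 of 51 unigenes called up and none called down. SmiContig10532 had 3, 31 and 299 reads, an 84.6-fold ratio of MeJA-6h to control (28.7 to 412), and ranked first among the rises of listed unigenes. It was higher at 6 h than at 1 h. Of the family, 18 unigenes were called lower at 6 h than at 1 h and 3 higher. AP2-EREBP factors, which include many factors of jasmonate and ethylene responses, had 18 of 28 called up and 1 called down. The first by rank was c22694_Smj-1h_g1_i1, with 0, 283 and 108 reads, at least 30.6-fold, and 11 of the family were lower at 6 h than at 1 h. None was higher. The AP2-EREBP unigene c20376_Sye-1h_g1_i1 fell by 2.33 on the log2 scale, on 38 and 9 reads.

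WRKY factors, known for roles in defence, formed the largest family. Of 59 unigenes 17 were called up and 3 called down, which became 26 and 2 with TMM. SmiContig11372 rose from 4 to 84 reads, a log2 fold change of 3.99 (2.75 to 6.06), and c17615_Sye-1h_g1_i2 fell by 2.56 on the log2 scale from 30 to 6 reads. MYB factors, which control phenylpropanoid genes in many plants, had 11 of 38 called up, or 19 with TMM. The first MYB rise by rank was c30026_Smj-6h_g1_i1, with 0, 30 and 36 reads, at least 10.2-fold. NAC factors had 8 of 27 called up, or 13 with TMM, and c14600_Smj-6h_g1_i1 rose from 4.28 to 18.9 RPKM (log2 2.14, 1.72 to 2.59). The lowest values of MYB and NAC unigenes with enough reads were -0.05 and -0.23, not called, and their sign changed with TMM.

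Homeobox (HB) factors act in development. Of 23 HB unigenes 14 were called up at 6 h, with a median log2 fold change of 1.51 at 6 h and 0.52 at 1 h. Of these, 4 were called higher at 6 h than at 1 h and none lower. In c3781_Smj-6h_g1_i1 there were 2, 2 and 44 reads, an 18.7-fold ratio of MeJA-6h to control (4.87 to 159). The median was higher at 6 h than at 1 h in other families as well, such as C2H2 with 1.14 and 0.87. In C2H2, however, 3 unigenes were called higher at 6 h than at 1 h and 5 lower. The share of counted reads of C2H2 unigenes went from 0.052% in MeJA-1h to 0.032% in MeJA-6h. The difference between families was not tested. The smaller families that follow were chosen after their values were seen. G2-like unigenes had medians of 2.24 at 6 h and 0.12 at 1 h, with 3 of 6 called up, and LOB unigenes had 1.58 and -0.17, with 4 of 6 called up and 1 called down. Both unigenes of the SRS family were called up and were higher at 6 h than at 1 h, on 9 and 12 control reads and 38 and 54 reads in MeJA-6h. The read counts of these families are low, and none of their unigenes passed with a coefficient of variation of 0.4.

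**Figure D4:**
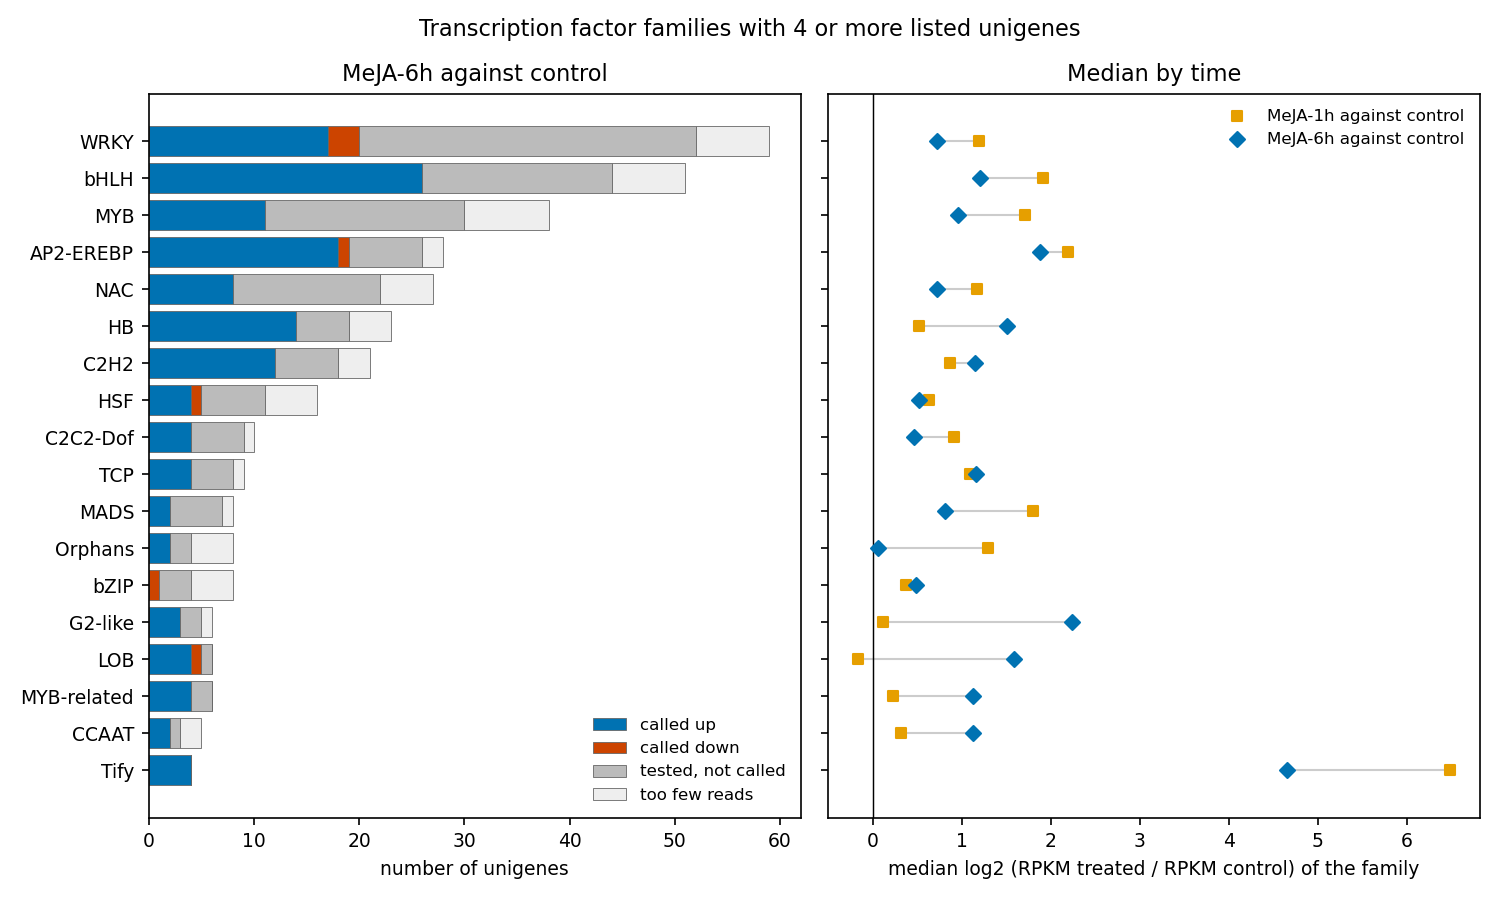
Left, the number of listed unigenes of each transcription factor family called up, called down, tested without a call, or with too few reads, in MeJA-6h against control. Right, the family's median log2 ratio to the control at 1 h (squares) and 6 h (diamonds): Tify has the highest medians, 6.48 and 4.65, and HB, G2-like and LOB are higher at 6 h.

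C2H2 zinc finger factors had 12 of 21 called up, and SmiContig9681 went from 3 to 39 reads, an 11.0-fold ratio (3.51 to 55.8). HSF factors, which act in heat stress, had 4 of 16 called up. The largest HSF value was 2.10 (1.63 to 2.64) in c12508_Smj-0h_g1_i1. SmiContig29542 had a log2 fold change of -1.07, or -0.83 with TMM, and was called down by library totals only. In the C2C2-Dof family 4 of 10 were called up, all lower at 6 h than at 1 h. SmiContig27087 of this family had 1.88, 43.1 and 9.04 RPKM and a log2 fold change of 2.26 (1.45 to 3.21), while SmiContig21560 had -0.19, which turned to 0.05 with TMM. TCP factors had 4 of 9 called up, with values from 0.26 in SmiContig7095 to 2.36 in c19404_Smj-6h_g1_i1 among those with enough reads.

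MADS factors had 2 of 8 called up, or 4 with TMM, the larger at 2.96 (1.75 to 4.47) on 6 and 55 reads. Of 8 bZIP unigenes only 4 had enough reads. None was called up by library totals, and 2 were with TMM. The bZIP unigene c1231_Sye-1h_g1_i1 fell by 1.37 on the log2 scale, on 52 and 24 reads. Its family's highest value was 1.14 (0.29 to 2.09) in c28899_Smj-6h_g1_i1, called with TMM. Unigenes of the Orphans class had 2 of 8 called up, and c24944_Smj-6h_g1_i1 had 1.72 (0.56 to 3.05). Neither GRAS unigene was called. SmiContig9465, an abundant GRAS unigene, had 330, 440 and 600 RPKM and a log2 fold change of 0.86 (0.83 to 0.89), which passed with TMM. Over all families, 75 of the 150 factors called up passed with a coefficient of variation of 0.2 and 11 with 0.4. The 11 with 0.4 included 5 bHLH, 3 AP2-EREBP and 3 Tify unigenes.

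Outside the lists, the largest changes by rank were in unigenes that carry no name in the tables used here. SmiContig14835 had 2, 2416 and 4757 reads in the control, MeJA-1h and MeJA-6h. The ratio of MeJA-6h to control was 2018-fold, with an interval from 558 to 16668. Its deposited RPKM values in the control and MeJA-6h were 0.114 and 183, which give a lower ratio. SmiContig6853 had 8.59, 968 and 2812 RPKM, a log2 fold change of 8.35 (8.03 to 8.72). Both were higher at 6 h than at 1 h. The largest falls were in c577_Sye-12h_g1_i1 and SmiContig2918. Their reads went from 195 and 189 in the control to 3 each in MeJA-6h, and in MeJA-1h they had 1 and 0 reads. The ratios of control to MeJA-6h were 76.6 (25.8 to 375) and 74.3 (25.02 to 363). All 4 passed with a coefficient of variation of 0.4, a setting at which 141 unigenes were called up and 17 down.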

How the data were processed

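RNA of untreated hairy roots and of roots treated with MeJA for 1 h or 6 h was compared, with 1 library per condition. Groups follow the sample labels. The extraction text of the labels speaks of retinas and was not used. Per the study's methods, the authors filtered reads with NGS QC toolkit 2.3 and assembled unigenes with Trinity (K-mer 25). The counting program is not given in the sources used here. The deposited estimated counts are whole numbers that look like estimates with the decimals dropped, without normalization. For the deposited RPKM table, the authors divided reads by unigene length and library total. The design had assumed plain counts, and the same test was used.

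The read test was binomTest (edgeR 4.0.16, R 4.3.3). Its p-values were adjusted after Benjamini-Hochberg over those unigenes in which either library had at least 30 reads, and calls were made at an FDR under 0.01 and an RPKM fold over 2 or under 0.5. For a unigene of 1 kb, 3 reads equal 0.224 RPKM in the control and 0.190 in MeJA-6h. PCR reads without molecular identifiers are not independent molecules, so intervals cover counting error only. Alternatives were scaling by TMM over 5 or 2 libraries or by size factors of DESeq2 1.42.0, minimums of 1 or 100 reads, 1 RPKM added, an FDR of 0.05, and the exact test of edgeR in which the coefficient of variation was taken as 0.2 or 0.4. The read test was also run on simulated data. With a spread of 0.0 it called 1 of 41443 unigenes set to be equal (0.00241%). With a spread of 0.2 it called 1425 of 41768 such unigenes (3.41%). Of 100 unigenes set to differ 3-fold, it recovered 92 and 87 in the same order. These were drawn only from unigenes with at least 30 expected control reads, so recovery at lower control counts was not simulated. Tables were handled in Python 3.11.15 (pandas 2.3.3, numpy 2.4.6), intervals computed in scipy 1.17.1 and plots drawn in matplotlib 3.10.9.

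Lists and names come from the study's tables, and primers from its primer table. A RefSeq table of 42046 genes matched 0 unigene names. Members, lists and rules were chosen with earlier results of these data known. Named are the most abundant unigene of each pathway gene, the 6 P450s of each list with the largest absolute change and the largest in each co-expression group, the largest rise and fall of each transcription factor family with at least 8 unigenes, all Tify and GRAS unigenes, the largest rise and any fall in each candidate class, and the 2 largest rises and falls of all unigenes with at least 100 reads. Further unigenes of a named gene or family were chosen after their values were seen.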

Additional observations from a re-analysis of the deposited data

How the results depend on the processing

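No paired analysis was possible because each condition has 1 library, and for the same reason no replicate was left out. Among the 96 named unigenes, TMM over 5 libraries left 84 on the same side of the threshold, brought 7 past it and took 1 off it. The sign turned in 4, none of them called: the MYB unigene c14579_Sye-12h_g1_i2 (log2 0.19 by TMM over 5 libraries, 0.17 by TMM of 2 and 0.18 by DESeq2 size factors), the NAC unigene SmiContig2638 (0.013 by TMM over 5 and 0.012 by DESeq2), the C2C2-Dof unigene SmiContig21560 (0.050, 0.034 and 0.048 in that order) and the Orphans unigene SmiContig9067 (0.10, 0.088 and 0.10). At a minimum of 1 read, 96 of 96 were on the same side, at 100 reads 83 and with 1 RPKM added 92. At an FDR of 0.05, 95 were and 1 came past the threshold. With an assumed coefficient of variation of 0.2, 20 of the 96 lost their call, and with 0.4, 53 did.

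Under TMM over 5 libraries, TMM of 2 libraries and DESeq2 size factors, 2631, 2762 and 2634 unigenes were called down, against 4303 by library totals, and 2051 at a minimum of 100 reads. Median log2 fold changes under these 3 scalings were 0.78, 0.77 and 0.78 for the tanshinone pathway, 1.66, 1.65 and 1.66 for the phenolic acid pathway, and 0.32, 0.31 and 0.32 for the P450s of the tanshinone list. They were 2.46, 2.45 and 2.46 for the P450s of the phenolic acid list, 1.08, 1.06 and 1.08 for the candidates, and 1.17, 1.15 and 1.17 for the transcription factors. With 1 RPKM added, the last 3 were 2.10, 0.73 and 0.75. At least 100 reads left 0 transcription factors called down, and 1 RPKM added left 4.

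Assumed variation between pooled libraries reduced the calls most. With edgeR's exact test at a coefficient of variation of 0.2, 1253 unigenes were called up and 1062 down, and at 0.4 141 and 17. In the lists, calls up were 5 and 0 (at 0.2 and 0.4) for the tanshinone pathway, 16 and 1 for the phenolic acid pathway, 2 and 0 for the P450s of the tanshinone list, 18 and 1 for those of the phenolic acid list, 3 and 1 for the candidates and 75 and 11 for the transcription factors. Transcription factors called down were 4 and 0, and candidates called down were 1 and 0. The variation itself was not measured. Depth limits low unigenes: 12986 of 55588 had under 30 reads in both libraries and were not tested.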

Other observations

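Unigene names other than the 32838 merged ones give the assembly the unigene came from, and the calls differed by that part. Names and levels come from the same libraries, so this difference is a description. Of 3405 tested unigenes named for the control assembly, 2.56% were called up in MeJA-6h and 15.4% down. Of 3075 named for the MeJA-6h assembly, 12.2% were called up and 2.96% down. For the MeJA-1h assembly these shares were 9.38% and 6.35%. For the yeast extract assemblies they were 4.58% and 7.80% (YE-1h) and 4.54% and 9.04% (YE-12h). Of 27557 unigenes with merged names, 5.69% were called up and 11.0% down.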
